A study of Mus musculus with 5 samples.

Results

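The interleukin 12 (IL-12) family comprises cytokines built from 2 different chains, encoded here by 5 genes: Il12a, Il12b, Il23a, Il27 and Ebi3. Probes were assigned to these genes by the RefSeq accession that the array lists for them. Of the 5 genes, 4 had a probe (Il12a, Il23a, Il27 and Ebi3), each with 1 probe at 1 spot per array, among 20145 genes with a probe in all. No probe carried the accession that the annotation gives for Il12b, so Il12b was not analysed here, which does not show that the array lacks a probe for it: 29099 of the 55681 probes were paired with no gene by this annotation. The scanner rated all 4 probes well above background on every array.

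Each cytokine of the family pairs a chain shaped like a cytokine with a chain shaped like a soluble receptor. Il12a encodes p35, which joins p40 (the product of Il12b) to form IL-12, the cytokine that drives T helper 1 cells and interferon gamma. Il23a encodes p19, which joins p40 to form IL-23, a factor that sustains IL-17 producing lymphocytes. Il27 encodes p28, which joins the product of Ebi3 to form IL-27, and the Ebi3 product can also join p35 to form IL-35. Macrophages and dendritic cells are known sources of these chains after microbial or other danger signals, and NF-kB and interferon regulatory factors are known to act on their genes.

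The RNA came from cells washed from the peritoneal cavity of BALB/c females, 2 h after they were injected intraperitoneally. There were 5 groups: 50 µg AEPS (a root polysaccharide of Actinidia eriantha, a relative of kiwifruit), 25 µg OVA (ovalbumin, a protein antigen) with 50 µg AEPS, 25 µg OVA plus alum at 200 µg (an aluminium-based vaccine adjuvant), 25 µg OVA alone, and PBS, the vehicle. The mouse age and whether mice were pooled were not given in the sources used here. Each group was 1 single-colour array, so no test between groups was run, no p-value is given, and each difference describes these arrays only.

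Signals are given as scaled signal, the scanner's background-subtracted intensity after every array was brought to the same 75th percentile. Differences are log2 differences of that signal, each with a technical standard error (SE) from the scanner's error model. Variation from mouse to mouse and array to array is not in that SE, and the number of arrays limits the precision. A gene was counted when it differed 2-fold or more, among genes that were well above background on at least 1 of the 2 arrays compared. On each array at least 56.7% of probes passed the scanner's background criterion. All 5 arrays lay on 1 slide, each at its own place, and the PBS array alone lay in row 1 of it. In every comparison, therefore, the place on the slide and the treatment cannot be told apart. All 10 markers of large peritoneal macrophages, the resident cells of this cavity, were well above background on every array. In RNA from mixed cells, fewer cells of a type and less RNA per cell cannot be told apart.

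The 250 bases before the transcription start are shown for Ebi3 and Il12a, whose products can pair with each other but whose signals ordered the arrays differently, with the matches to an NF-kB-like pattern marked. The sequences are those of RefSeq for GRCm38.p6, on the plus strand, 5′ to 3′, with the pattern in capitals. Il12a has 2 annotated starts.
Ebi3, chr17:55952373-55952622: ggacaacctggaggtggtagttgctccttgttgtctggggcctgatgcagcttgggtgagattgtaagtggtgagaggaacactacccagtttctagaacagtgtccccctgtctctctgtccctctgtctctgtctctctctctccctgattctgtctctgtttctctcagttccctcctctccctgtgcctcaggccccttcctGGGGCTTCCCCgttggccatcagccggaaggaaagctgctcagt
Il12a, first start, chr3:68690394-68690643: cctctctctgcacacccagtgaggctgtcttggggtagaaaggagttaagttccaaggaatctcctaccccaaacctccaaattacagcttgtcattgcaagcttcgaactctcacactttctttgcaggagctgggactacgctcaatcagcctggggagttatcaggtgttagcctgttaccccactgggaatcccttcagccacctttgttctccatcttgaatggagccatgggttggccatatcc
Il12a, second start, chr3:68691174-68691423: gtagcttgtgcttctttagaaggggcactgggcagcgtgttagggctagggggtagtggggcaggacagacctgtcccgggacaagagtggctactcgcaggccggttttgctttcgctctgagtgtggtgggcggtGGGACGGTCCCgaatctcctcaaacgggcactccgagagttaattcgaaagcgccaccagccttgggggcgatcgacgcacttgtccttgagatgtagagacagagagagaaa

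The pattern searched for NF-kB was GGGNNNNNCC on both strands, and overlapping matches were each counted. The Ebi3 window held 4 overlapping matches, in the bases from -44 to -34 counted from the start. The runs starting at -44 and -43 were each counted on both strands, so these matches mark a single stretch. The second Il12a window held 2 overlapping matches, also in a single stretch, from -113 to -103, and the first held 0. The window of Il12b, chr11:44399813-44400062, is not printed because Il12b has no value here, and it also held 0. The pattern is loose: 45.8% of 32851 promoter windows of this length held it. The interferon-stimulated response element, searched as GAAANNGAAA, and the AP-1 pattern TGANTCA had 0 matches in these 4 windows, against 2.98% and 6.75% of all windows. Il23a and Il27 had no window in the promoter set used, so neither was searched. A match is a run of letters and does not show that a factor binds there.

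With AEPS, alone or with OVA, the genes of p19 and p28 exceeded their signals on the other 3 arrays by 2-fold or more, the Ebi3 gene had its 2 highest signals, and the p35 gene followed another order. Il23a, the p19 gene, had a scaled signal of 359 with AEPS and 290.3 with OVA+AEPS, against 40.0 with OVA+Alum, 58.3 with OVA and 62.2 with PBS. The AEPS and OVA+AEPS arrays thus stood above the other 3 with no value between. They differed from each other by 0.31 ± 0.20 (log2 difference ± technical SE, the higher array minus the lower). Il27, the p28 gene, had a scaled signal of 956 with AEPS and 1071 with OVA+AEPS, against 348 with OVA+Alum, 423 with OVA and 367 with PBS. The same pair of arrays stood apart, and the other 3 lay close together. Ebi3, which encodes the partner of p28, had a scaled signal of 28794 with AEPS and 24936 with OVA+AEPS, against 17199 with OVA+Alum, 16650.1 with OVA and 9465 with PBS. For Ebi3 the arrays fell into 3 levels, with PBS alone at the bottom. Il12a, the p35 gene, had a scaled signal of 65.5 with AEPS and 99.5 with OVA+AEPS, against 106 with OVA+Alum, 64.0 with OVA and 57.9 with PBS. Its highest values were on the alum and OVA+AEPS arrays, and AEPS alone lay beside OVA and PBS.

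**Figure D1:**
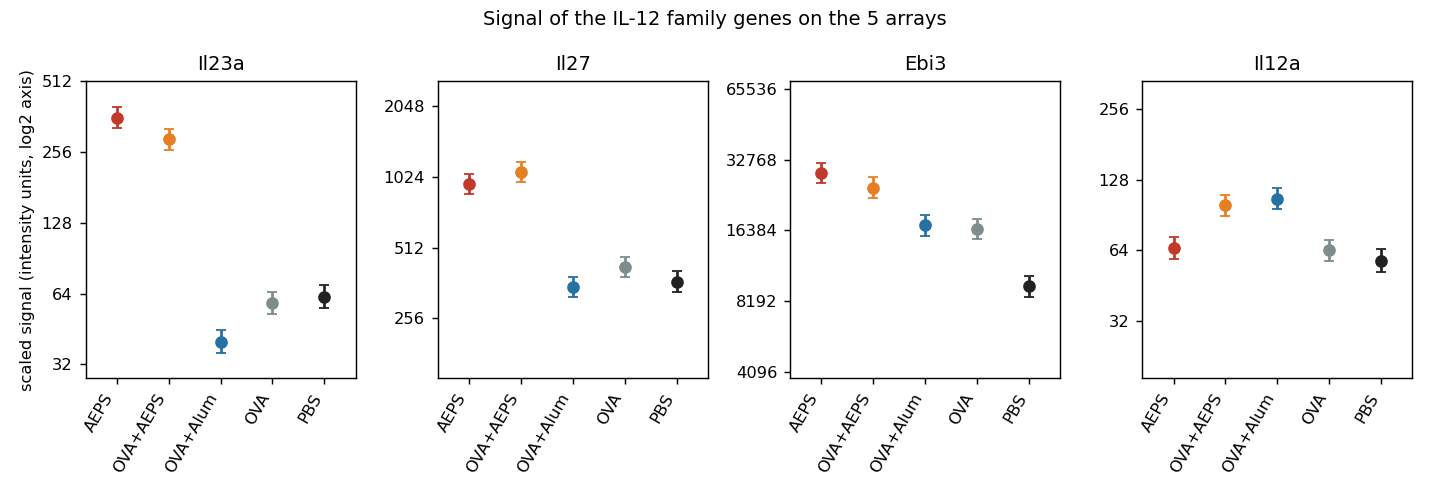
Scaled signal (intensity units, log2 axis) of Il23a, Il27, Ebi3 and Il12a on the 5 arrays, with bars of 1 technical SE. Il23a and Il27 are high on the AEPS and OVA+AEPS arrays, Ebi3 is lowest on the PBS array, and Il12a is highest on the OVA+Alum array.

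Neighbours in the order of arrays were compared against 2 technical SE. For Il27 the only step beyond it was that between the AEPS and OVA arrays, 1.18 ± 0.20. For Il23a the steps beyond it were that between OVA+AEPS and PBS, 2.22 ± 0.21, and that between OVA and OVA+Alum, 0.54 ± 0.23. For Ebi3 they were the step between OVA+AEPS and OVA+Alum, 0.54 ± 0.20, and that between OVA and PBS, 0.81 ± 0.20. For Il12a the only such step was that between OVA+AEPS and AEPS, 0.60 ± 0.22. The last step of Il23a and that of Il12a were within 2 technical SE after normexp and quantile normalization, at 0.18 and 0.34. From the highest to the lowest array the signal spanned 8.98-fold for Il23a, 3.08-fold for Il27, 3.04-fold for Ebi3 and 1.83-fold for Il12a. The Il23a span rests on a dim signal of 40.0 with OVA+Alum, and its size depends on how background is handled. The Il12a signals were also dim, from 57.9 with PBS to 106 with OVA+Alum. The log2 difference between those 2 arrays was 0.87, and 0.52 after normexp and quantile normalization.

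The first comparison asked what the polysaccharide alone did relative to vehicle. Of the 4 members, 3 were at least 2-fold higher with AEPS than with PBS, where 8.70% of 14935 genes were so, and 0 were lower, against 6.89% of genes. Il23a was higher by 2.53 ± 0.21, which placed it 253rd from the top of the 14935 genes. Ebi3 was higher by 1.61 ± 0.20 and Il27 by 1.38 ± 0.20, so the genes of both IL-27 chains differed by similar amounts, their differences being -0.23 ± 0.29 apart (Il27 minus Ebi3). Il12a differed by 0.18 ± 0.22. The median of the 4 members was 1.49, against -0.166 over all genes.

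The same question with antigen present was put by comparing OVA+AEPS with OVA, a pair of arrays not used in the comparison of AEPS with PBS. Here 2 of the 4 members were at least 2-fold higher, where 4.08% of 14904 genes were so, and 0 were lower, against 3.64%. Il23a differed by 2.32 ± 0.21 and Il27 by 1.34 ± 0.20. They stood 151st and 367th from the top of the 14904 genes. Ebi3 was under the 2-fold threshold at 0.58 ± 0.20, as was Il12a at 0.64 ± 0.21. The p28 and Ebi3 genes thus differed by unlike amounts here, 0.76 ± 0.29 apart (Il27 minus Ebi3).

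Adding OVA to AEPS left all 4 members within 2-fold of AEPS alone, where 2.06% of 14691 genes passed 2-fold upward and 1.88% downward. Il12a was the furthest, at 0.60 ± 0.22, while Il23a was at -0.31 ± 0.20, Ebi3 at -0.21 ± 0.20 and Il27 at 0.16 ± 0.20. The difference made by AEPS with OVA minus that without OVA was -0.22 ± 0.30 for Il23a and -0.04 ± 0.29 for Il27, against a median of 0.14 over all genes. For Ebi3 it was -1.02 ± 0.29, and for Il12a 0.46 ± 0.31. These values hold the spread of 4 arrays, including the PBS array with its own slide row, and were not tested.

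OVA alone was compared with PBS to show what the antigen did without adjuvant. None of the 4 members was 2-fold higher or lower, where 6.67% of 15040 genes were higher and 4.08% lower. Ebi3 was nearest to the threshold at 0.81 ± 0.20. Il23a at -0.09 ± 0.22, Il27 at 0.20 ± 0.20 and Il12a at 0.14 ± 0.22 lay within 2 technical SE of 0. With OVA in place of PBS as the reference for AEPS alone, the 2 arrays share the slide row but not the column. There 2 of 4 members were at least 2-fold higher, where 4.25% of 14845 genes were so, and 0 were lower, against 3.24%. Il23a differed there by 2.62 ± 0.21, Il27 by 1.18 ± 0.20, Ebi3 by 0.79 ± 0.20 and Il12a by 0.03 ± 0.22.

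The alum arm had its own pattern. In OVA+Alum against OVA none of the 4 members passed 2-fold, where 4.14% of 15058 genes were higher and 5.45% lower. Il12a stood at 0.73 ± 0.21, Il23a at -0.54 ± 0.23, Il27 at -0.28 ± 0.20 and Ebi3 at 0.05 ± 0.20. The genes of the 2 chains that pair with p40 thus lay on opposite sides, 1.27 ± 0.31 apart, with Il23a minus Il12a negative. After normexp and quantile normalization Il23a minus Il12a was -0.62 there, with Il23a at -0.18, which is within its technical SE of 0.23, and Il12a at 0.43. Against PBS, again none passed 2-fold, where 6.45% of 15077 genes were higher and 5.15% lower. Il12a stood at 0.87 ± 0.22, Ebi3 at 0.86 ± 0.20, Il27 at -0.08 ± 0.20 and Il23a at -0.64 ± 0.23.

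The 2 adjuvants were set side by side in OVA+AEPS against OVA+Alum, both with the same dose of OVA. Of the 4 members, 2 were at least 2-fold higher with AEPS, where 6.76% of 14991 genes were so, and 0 were lower, against 6.44%. Il23a differed by 2.86 ± 0.22, the 138th from the top of all genes, and Il27 by 1.62 ± 0.20. After normexp and quantile normalization the 2 lay closer together, with Il23a at 1.71 and Il27 at 1.58. Ebi3 differed by 0.54 ± 0.20 and Il12a by -0.09 ± 0.21. OVA+AEPS against PBS, which shares its PBS array with the first comparison, had 3 of 4 members higher, where 8.30% of 14994 genes were so, and 0 lower, against 6.18%. Il23a stood at 2.22 ± 0.21 there, Il27 at 1.54 ± 0.20, Ebi3 at 1.40 ± 0.20 and Il12a at 0.78 ± 0.22.

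**Figure D2:**
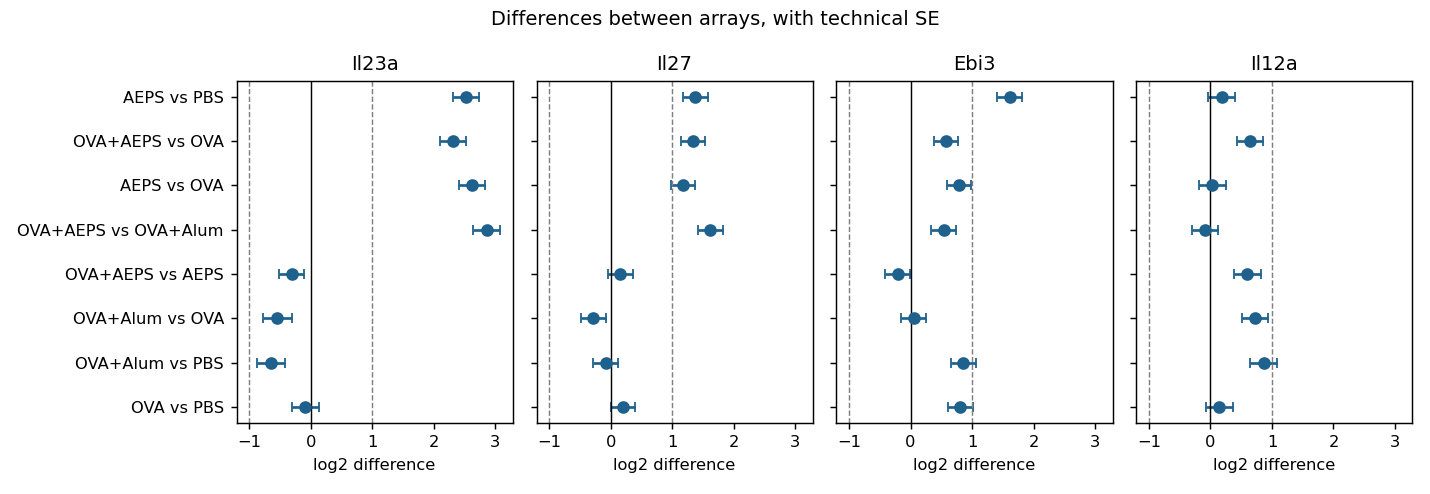
Log2 differences (first array minus second, bars of 1 technical SE) of the 4 members in 8 of the 9 comparisons, with dashed lines at 2-fold; OVA+AEPS vs PBS is not drawn. Il23a and Il27 lie beyond the upper line wherever an AEPS array is set against an array without AEPS, Ebi3 does so in AEPS vs PBS, and Il12a lies within the lines in all 8.

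Genes known to regulate the subunit genes were described next, as a list of 13 that were all well above background. Of these, 3 were at least 2-fold higher with AEPS than with PBS and 0 lower, against 8.70% and 6.89% of all genes. OVA+AEPS vs OVA also had 3 higher and 0 lower, against 4.08% and 3.64% of all genes. Nfkbiz, which encodes a nuclear I-kappa-B protein needed for secondary NF-kB targets in macrophages, had a scaled signal of 1316 with AEPS and 1190.4 with OVA+AEPS, against 637 with OVA+Alum, 426 with OVA and 375 with PBS. Its difference was 1.81 ± 0.20 in AEPS vs PBS and 1.48 ± 0.20 in OVA+AEPS vs OVA. Il10, a cytokine that restrains IL-12 production, had a scaled signal of 1071 with AEPS and 821 with OVA+AEPS, against 421 with OVA+Alum, 210.1 with OVA and 295 with PBS. Like Il23a, Nfkbiz and Il10 were highest on the 2 AEPS arrays, and the alum array lay next for them but last for Il23a. Rel, the c-Rel subunit of NF-kB, differed by 1.40 ± 0.21 in AEPS vs PBS and 0.67 ± 0.21 in OVA+AEPS vs OVA. Atf3, a repressor induced by Toll-like receptor signals, differed by 0.92 ± 0.20 and 1.22 ± 0.20 in the same comparisons. The list median was 0.68 in AEPS vs PBS and 0.32 in OVA+AEPS vs OVA.

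Of the 5 receptor chains, none passed 2-fold in either AEPS comparison. Over all genes, 8.70% were higher and 6.89% lower in AEPS vs PBS, and 4.08% and 3.64% in OVA+AEPS vs OVA. Il23r, the specific chain of the IL-23 receptor, was not well above background on any of the 5 arrays. Il12rb1, the chain shared by the receptors of IL-12 and IL-23, had a scaled signal of 1252 with AEPS and 1127 with OVA+AEPS, against 807 with OVA+Alum, 692 with OVA and 679 with PBS. It was the furthest of the chains in AEPS vs PBS, at 0.88 ± 0.20. Il27ra and Il6st, the chains of the IL-27 receptor, differed by -0.20 and -0.04 in AEPS vs PBS. The median of the 4 measured chains was -0.11 there and 0.34 in OVA+AEPS vs OVA.

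Among 5 receptor kinases and STATs, 2 were higher in AEPS vs PBS (8.70% of all genes) and 0 in OVA+AEPS vs OVA (4.08%). None was lower in either, against 6.89% and 3.64% of all genes. Jak2, a kinase of the IL-12 and IL-23 receptors, was higher by 2.16 ± 0.20 in AEPS vs PBS and by 2.16 ± 0.20 in OVA vs PBS. In OVA+Alum vs OVA it was lower (-1.09 ± 0.20), so its signal was low on the 2 arrays of slide column 4, PBS and OVA+Alum. The part of slide position in the Jak2 values was not tested. Stat4, the main carrier of the IL-12 signal, differed by 1.23 ± 0.20 in AEPS vs PBS and by -0.11 ± 0.20 in OVA+AEPS vs OVA.

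Of 10 target cytokines and feedback genes, 9 could be counted, since Il21 was not well above background on any array. In AEPS vs PBS 4 of the 9 were higher, in OVA+AEPS vs OVA 1, and in OVA+Alum vs PBS 5, with 0 lower in each. The shares of all genes higher were 8.70%, 4.08% and 6.45%, and those lower 6.89%, 3.64% and 5.15%, in the same order. Ifng, the cytokine that IL-12 induces, had a scaled signal of 1819 with AEPS and 1152 with OVA+AEPS, against 1425 with OVA+Alum, 734 with OVA and 345 with PBS. The other 4 arrays thus lay above PBS, and OVA+Alum lay between the AEPS arrays. Its difference in AEPS vs PBS was 2.40 ± 0.14. Il17a, a product of cells that answer to IL-23, had a scaled signal of 53.1 with AEPS, 47.1 with OVA+AEPS, 87.2 with OVA+Alum and 28.6 with OVA, and was not well above background with PBS. It was at least 4.36-fold higher with AEPS than with PBS, computed against the lowest signal well above background on the PBS array or its own signal there, whichever was larger. It was highest on the alum array, where Il23a was lowest. Socs1, a feedback inhibitor of cytokine receptors, was the gene higher in OVA+AEPS vs OVA, at 2.02 ± 0.20, and stood at 2.20 ± 0.20 in AEPS vs PBS.

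**Figure D3:**
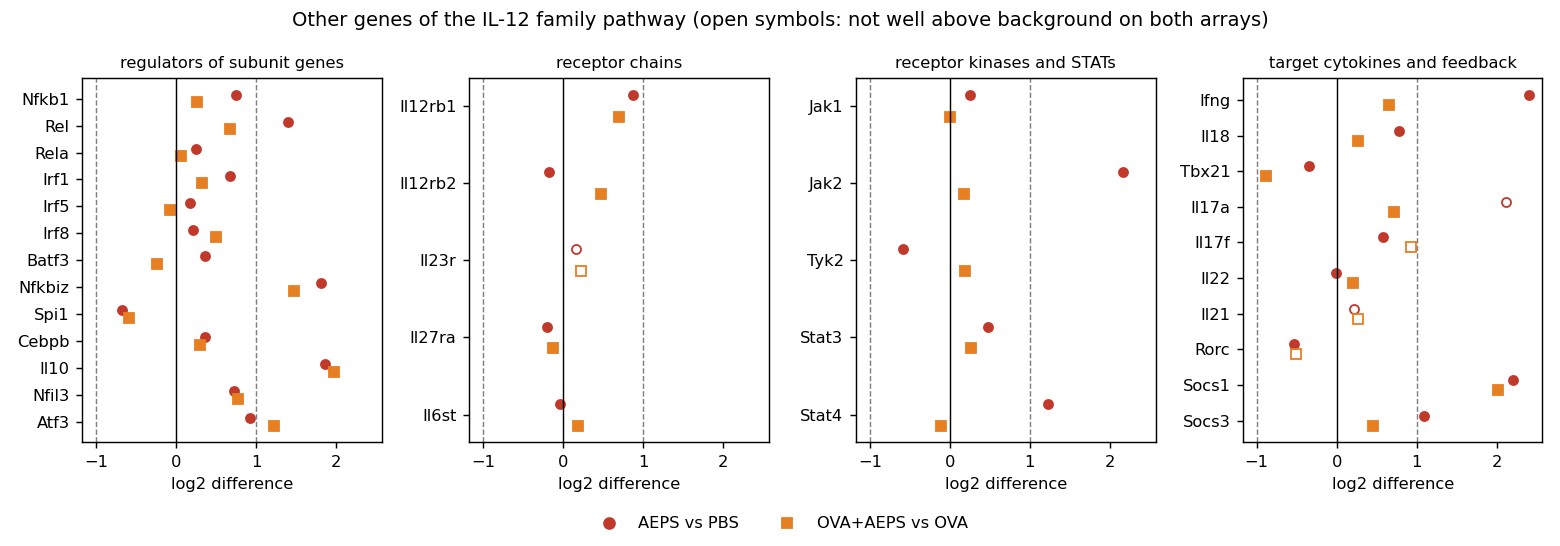
Log2 differences of the 4 pathway lists in AEPS vs PBS (circles) and OVA+AEPS vs OVA (squares), with dashed lines at 2-fold and open symbols for genes not well above background on both arrays. Nfkbiz, Il10 and Socs1 lie beyond the upper line in both comparisons, and Il23r is open in both.

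Markers of other cells moved with several of these comparisons. Over all genes, 8.70% were higher and 6.89% lower in AEPS vs PBS, and 4.08% and 3.64% in OVA+AEPS vs OVA. In OVA+Alum vs OVA these shares were 4.14% and 5.45%. Against PBS, 6.45% of genes were higher with OVA+Alum and 6.67% with OVA. Among the 12 markers of neutrophils, 9 passed 2-fold upward in AEPS vs PBS, 10 in OVA+Alum vs PBS and 10 in OVA vs PBS, and their summed scaled signal was 976740.5 with AEPS, 868648 with OVA+AEPS, 956965 with OVA+Alum, 811121 with OVA and 502811 with PBS. In OVA+AEPS vs OVA, where Il23a and Il27 were also higher, 1 neutrophil marker was higher and 1 lower. Of 10 dendritic cell markers, 9 were well above background on every array and Xcr1 was not on any. In AEPS vs PBS 0 of the 9 were higher and 1 lower, and in OVA+AEPS vs OVA 0 were higher and 3 lower (Flt3, Clec9a and Itgax). The summed signal of the list was 109613 with AEPS, 105319 with OVA+AEPS, 110524 with OVA+Alum, 91529 with OVA and 101555 with PBS, and most of each sum came from the Siglech probe, at 86261 with AEPS and 77672 with PBS. Flt3, the growth factor receptor of dendritic cells, was singled out after its values were seen: it was lower in AEPS vs PBS (-1.57 ± 0.21) and in OVA+AEPS vs OVA (-1.18 ± 0.21). Zbtb46, a transcription factor of classical dendritic cells, lay on the other side, at 0.98 ± 0.21 and 0.96 ± 0.21, under 2-fold in both. For the 10 large peritoneal macrophage markers the summed signal was 542457 with AEPS, 617606 with OVA+AEPS, 344465 with OVA+Alum, 559839.6 with OVA and 665732 with PBS, and 4 of them were lower in OVA+Alum vs OVA, where Il12a and Il23a lay on opposite sides. Of 6 mesothelial markers, 5 were higher there. In OVA+AEPS vs OVA+Alum, 5 of the 10 macrophage markers, 3 mast cell markers, 1 dendritic cell marker and 1 monocyte marker were higher. In the same comparison 3 dendritic cell, 2 neutrophil and 2 mesothelial markers were lower. The shares of all genes there were 6.76% higher and 6.44% lower. In AEPS vs PBS, 1 of 7 inflammatory monocyte markers, 1 of 9 T and NK cell markers and 4 of 8 mast cell markers were higher, and 1 of 7 B cell markers was lower. In OVA+AEPS vs OVA, 1 monocyte marker and 1 T and NK cell marker were lower, and 0 mast cell and 0 B cell markers passed 2-fold. The part of these cell types in the values of the 4 members was not tested.

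For each member the genes with the most similar values over the 5 arrays were found by the root mean square (RMS) difference of centred log2 signal, among 13676 other genes well above background on all 5. This is a description over 5 arrays that share their slide and their scaling. Nearest to Il27 were Bst2, the antiviral tether, at an RMS difference of 0.057, Adap2, Oas1f, Ifi35 and Oas1a, of which Oas1f and Oas1a belong to the oligoadenylate synthetase family. Nearest to Ebi3 were Ptgs2, the inducible cyclooxygenase, at 0.039, then Fam219a, Ly6f, Skil and Irf9. Relative to PBS, the log2 difference of Ptgs2 was 1.67 for AEPS, 1.42 for OVA+AEPS, 0.87 for OVA+Alum and 0.76 for OVA. Nearest to Il23a were Gm5431, at 0.157, then Phf11a, Phf11d, Phf11b and Rilpl1; the Phf11 genes are close relatives whose probes may not separate them. Nearest to Il12a were Hoxc6, at 0.057, then Rcor2, Eml2, Rnf25 and Begain. Among the members themselves, Ebi3 lay 0.399 from Il27, which was closer than Il23a at 0.632 and Il12a at 0.735. Many other genes were closer: among the 13676, Ebi3 ranked 321st from Il27. Il27 ranked 1184th from Ebi3 and 78th from Il23a.

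**Figure D4:**
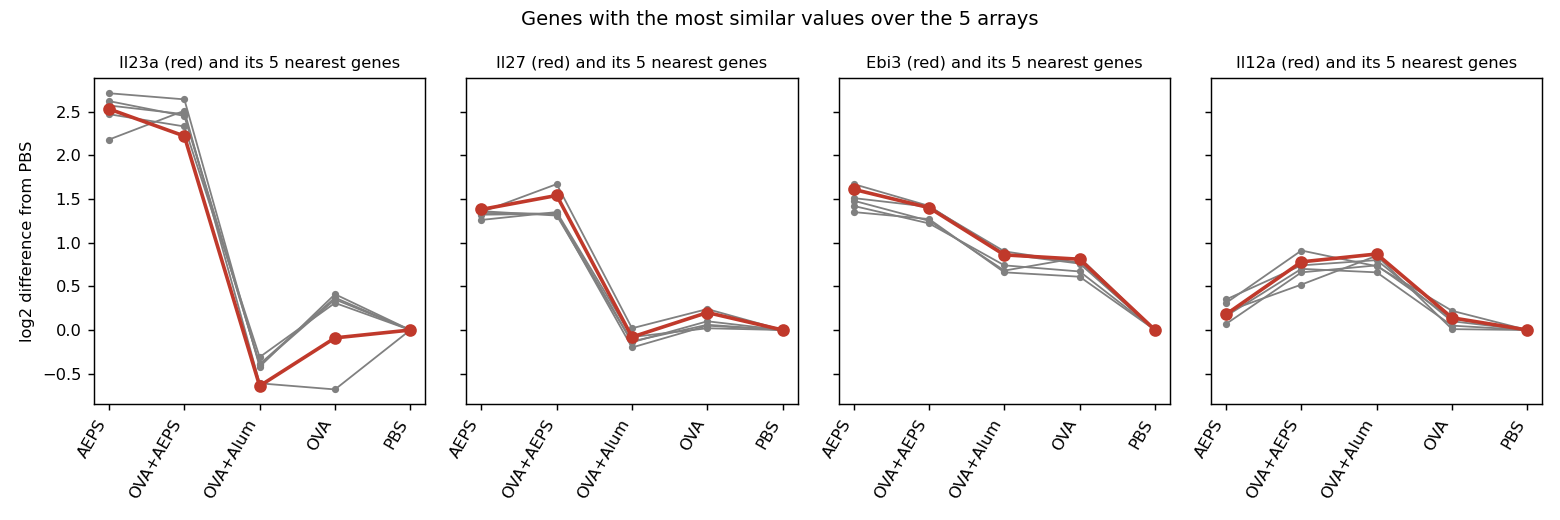
Log2 difference from PBS on each array for each member (red) and the 5 genes of the most similar values (grey), with PBS at 0. The Il27 and Il23a groups are high with AEPS and OVA+AEPS and near or below 0 with OVA+Alum, and the Ebi3 group lies above 0 on all 4 arrays other than PBS.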

How the data were processed

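Deposited scanner files hold linear intensity values, read by the authors with Agilent Feature Extraction 10.7.1.1 from a single-colour Cy3 array (design 028005), per the file headers, with background subtraction and detrending within each array and no step between arrays. Flags per spot are other deposited values of 0 or 1. The 5 columns of the deposited table of log2 values share their quantiles, from which a quantile normalization by the authors was read.

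Control and outlier spots were left out, log2 signal was taken minus the 75th percentile of each array, and spots of a probe were averaged. Of 55681 probes, 26582 had 1 gene symbol by RefSeq accession (GRCm38.p6), 0 several and 29099 none. The brightest probe stood for a gene (20121 genes with a value on every array). Computations used Python 3.11.15, R 4.3.3 and limma 3.58.1. The code that counts 2-fold differences was checked on simulated data. The files name no genome build, and protein sequences were not used here. A gene of the list of receptor kinases and STATs is not reported here. The 4 pathway lists, the marker lists, the members and the rule for named genes (all probes of the members, up to 4 genes of a list by size of difference, 5 nearest genes) were chosen with earlier results of these data known. For each comparison 8 alternatives were tried: median, quantile, normexp (offset 50) with quantile and spike-in scaling, the authors' table, the median over probes, and no or a stricter filter on dim probes.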

Additional observations from a re-analysis of the deposited data

Results flagged for a closer look

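Ebi3 moved in opposite directions with OVA according to whether AEPS was present: the OVA difference was -0.21 with AEPS (OVA+AEPS vs AEPS) and 0.81 without it (OVA vs PBS), each from 1 array per group. Neither passed 2-fold, the -0.21 is about the size of its technical SE of 0.20, and the difference between them was not tested.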

How the results depend on the processing

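Of 288 differences of the 4 members under the alternatives, 253 moved by less than the technical SE, 35 by more and 0 of the called ones changed sign. The 35 lay in spike-in scaling (23) and normexp with quantile normalization (12), and 0 under each of the other 6. The median over probes and the filters on dim probes could move no member, since each had 1 probe, well above background on every array. Their differences and counts were therefore fixed in advance and say nothing on stability. Il23a in AEPS vs PBS ranged between 1.76 and 3.19, and in OVA+AEPS vs OVA between 1.53 and 2.47. Il27 ranged between 1.28 and 2.04 in AEPS vs PBS and was at least 1.22 in OVA+AEPS vs OVA. The counts of members past 2-fold rose from 0 in 3 of 144 cases. In OVA+Alum vs PBS, 0 members were higher, against 1 with the median of each array and 2 with spike-in scaling. In OVA vs PBS, 0 were higher, against 1 with spike-in scaling. Counts that were not 0 also rose with spike-in scaling. In OVA+AEPS vs PBS the count rose from 3 to 4, with Il12a at 1.23. In AEPS vs OVA it rose from 2 to 3, with Ebi3 at 1.15. Of the steps between neighbouring arrays beyond 2 technical SE, that of Il23a between OVA and OVA+Alum was lost after normexp and quantile normalization (0.18), and that of Il12a between OVA+AEPS and AEPS was lost there (0.34) and under spike-in scaling (0.40). Spike-in scaling put 4 other steps beyond it: OVA to PBS for Il12a (0.44) and Il27 (0.50), and AEPS to OVA+AEPS for Il23a (0.51) and Ebi3 (0.41). The Ebi3 difference in OVA vs PBS reached 1.11 at most. Under spike-in scaling the median of all genes in AEPS vs PBS was 0.49, against -0.17, and 91.6% of called genes were higher, against 55.8%. Over the alternatives, genes 2-fold or more higher numbered 775 to 3284 in AEPS vs PBS (reported 1299), 746 to 2447 in OVA+AEPS vs PBS (reported 1244), 516 to 1571 in OVA+Alum vs PBS (reported 973), 515 to 1596 in OVA vs PBS (reported 1003), 301 to 1187 in AEPS vs OVA (reported 631), 260 to 1009 in OVA+AEPS vs OVA (reported 608), 141 to 1003 in OVA+Alum vs OVA (reported 623), 82 to 612 in OVA+AEPS vs AEPS (reported 303), and 508 to 1387 in OVA+AEPS vs OVA+Alum (reported 1013). Genes 2-fold or more lower numbered 303 to 1424 in AEPS vs PBS (reported 1029), 342 to 1330 in OVA+AEPS vs PBS (reported 927), 264 to 1279 in OVA+Alum vs PBS (reported 776), 124 to 1126 in OVA vs PBS (reported 614), 168 to 701 in AEPS vs OVA (reported 481), 214 to 765 in OVA+AEPS vs OVA (reported 542), 364 to 1096 in OVA+Alum vs OVA (reported 820), 103 to 512 in OVA+AEPS vs AEPS (reported 276), and 446 to 1201 in OVA+AEPS vs OVA+Alum (reported 965). Among differences under 2 technical SE, the sign was not kept under every setting for Il23a in OVA vs PBS (-0.09 to 0.20), Il27 in OVA+Alum vs PBS (-0.15 to 0.20) and in OVA+AEPS vs AEPS (-0.04 to 0.17), Ebi3 in OVA+Alum vs OVA (-0.05 to 0.06), and Il12a in OVA+AEPS vs OVA+Alum (-0.19 to 0.08) and in AEPS vs OVA (-0.04 to 0.40). The causes were not tested. No paired analysis was possible because each group has 1 array.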

Other observations

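The probe A_51_P385812 was picked for its RefSeq accession, to ask whether it reads a member of the family. Its values had been seen by then. The array lists it under a RefSeq accession that the annotation used here does not hold, so its gene is not named, and whether it reads a member of the family was not settled here. It was read at 10 spots on each array and was well above background on all 5. Its scaled signal was 230.1 with AEPS and 374 with OVA+AEPS, against 30.3 with OVA+Alum, 85.2 with OVA and 39.1 with PBS. The SD over its 10 spots was between 0.078 and 0.234 (log2). Its difference was 2.56 in AEPS vs PBS, 2.13 in OVA+AEPS vs OVA, 1.13 in OVA vs PBS and -1.49 in OVA+Alum vs OVA.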
